A study of Mus musculus with 6 samples.

Results

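The 37 genes described here encode ligands, receptors, SMAD proteins, SMAD regulators and target genes of the transforming growth factor beta (TGF-beta), bone morphogenetic protein (BMP) and activin pathways. They were chosen by gene symbol, and each symbol matched 1 of the 22958 gene entries of the tables. Expression had been measured by RNA sequencing in endothelial cells sorted on CD31 (PECAM1) from the brain of E11.5 mouse embryos whose mothers had received tamoxifen at E9.5. The 3 libraries overexpressing Axin1 (Axin1 libraries) were labelled Cdhrs5CreERT2:R26Axin1IL+/-. The 3 libraries with wildtype Axin1 (control libraries) were labelled Cdhrs5CreERT2:R26Axin1IL-/-. All 6 shared the strain label C57BL/6 x 129/Sv, so both groups carried the same Cre label and received tamoxifen, and they differed in the label of the Axin1 allele at R26. The driver of the Cre is given by that spelling alone. Libraries are called biological replicates, with no word on litters, on pooling of embryos or on sex, and the tests below rest on the variation among these 6 libraries, part of which may be technical.

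TGF-beta family ligands bind pairs of type I and type II receptor kinases, and the activated type I receptor phosphorylates receptor-regulated SMADs that enter the nucleus with SMAD4. In general TGF-beta and activin receptors act through SMAD2 and SMAD3, and BMP receptors act through SMAD1, SMAD5 and SMAD9. Endothelial cells carry in addition ACVRL1 (ALK1), a type I receptor for circulating BMP ligands, and its co-receptor endoglin. Loss of either in humans causes hereditary haemorrhagic telangiectasia, a disease of arteriovenous malformations. The comparison concerns the overexpression of Axin1, whose protein holds together the machinery that targets beta-catenin for destruction and so restrains Wnt signalling.

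The tables held between 10772492 and 14234409 reads per library, of which 0.249% to 0.317% fell on the 37 genes. Axin1 averaged 69.4 ± 9.24 CPM (counts scaled to library size) in Axin1 libraries and 21.1 ± 3.74 CPM in control libraries (SD, n = 3 each), and these reads do not separate the transgene from the endogenous gene. The endothelial identity of the sort was checked on 12 marker genes, whose summed level lay between 8455 and 9744 CPM in Axin1 libraries and between 8615 and 8916 CPM in control libraries. Pecam1 itself lay between 1182 and 1455 CPM over all libraries. All 13 macrophage markers had positive log2 fold changes, between 0.06 and 1.45, and they summed to 475, 2188 and 4048 CPM in Axin1 libraries 1, 2 and 3 and to 1142, 1540 and 1162 CPM in control libraries 1, 2 and 3. Erythroid markers ranged from 259 to 2708 CPM in Axin1 libraries and from 737 to 3072 CPM in control libraries. Megakaryocyte markers ranged from 311 to 1348 CPM in Axin1 libraries and from 637 to 708 CPM in control libraries. Pericyte and mesenchyme markers stayed between 129 and 206 CPM in Axin1 libraries and between 62.0 and 178 CPM in control libraries, and neural markers between 343 and 368 CPM in Axin1 libraries and between 290 and 475 CPM in control libraries. By edgeR no gene of these 6 marker lists was called, 3 endothelial genes had an unadjusted p under 0.05, and DESeq2 called Cdh5. Of 9 listed erythroid markers 8 were found under 1 entry each, and Hba-a1 is not in the sums. No marker that was found had 0 reads in all libraries, and the part of other cell types in the results was not tested. In such bulk libraries, fewer cells of a type and less RNA per cell cannot be told apart.

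No pathway member passed the test between Axin1 and control libraries. The quasi-likelihood test of edgeR was run on all 12661 genes with enough reads, with p-values adjusted over all of them after Benjamini and Hochberg and a threshold of 0.05. It called 0 of the 30 members that could be tested, where the background was 0.845% of all tested genes. Genes called higher in Axin1 libraries were 0.355% of all tested genes, and genes called lower were 0.49%. At an unadjusted p under 0.05 there were 5 members (16.7%), against 17.2% of all tested genes. DESeq2 called 1 member, Skil, against 5.69% of all tested genes. By limma on the deposited RPKM 0 members were called, beside 106 of all 12661 tested genes. The same 5 members were those whose 3 Axin1 libraries lay entirely above or below the 3 control libraries, a share of 16.7% beside 23.8% of all tested genes. Tgfbr1, Tgfbr3 and Skil were higher in every Axin1 library, and Tgfb2 and Smad3 were lower. Both shares lay near or under those of all tested genes.

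The members' fold changes were small. Of 30 log2 fold changes of Axin1 over control libraries, 16 were positive and 14 negative, with a median of 0.11 beside 0.02 for all tested genes. Their median size was 0.19 on the log2 scale, beside 0.24 for all tested genes. For 21 members the 95% confidence interval of the log2 fold change lay inside -1 to 1, so that changes as large as 2-fold in either direction lay outside it. The other 9, whose intervals reached further, were Tgfb1, Tgfb3, Bmp2, Bmpr1a, Acvr2b, Tgfbr3, Eng, Smad7 and Id2. The other 7 of the 37 members had too few reads to be tested, and their reads are given with their roles.

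**Figure D1:**
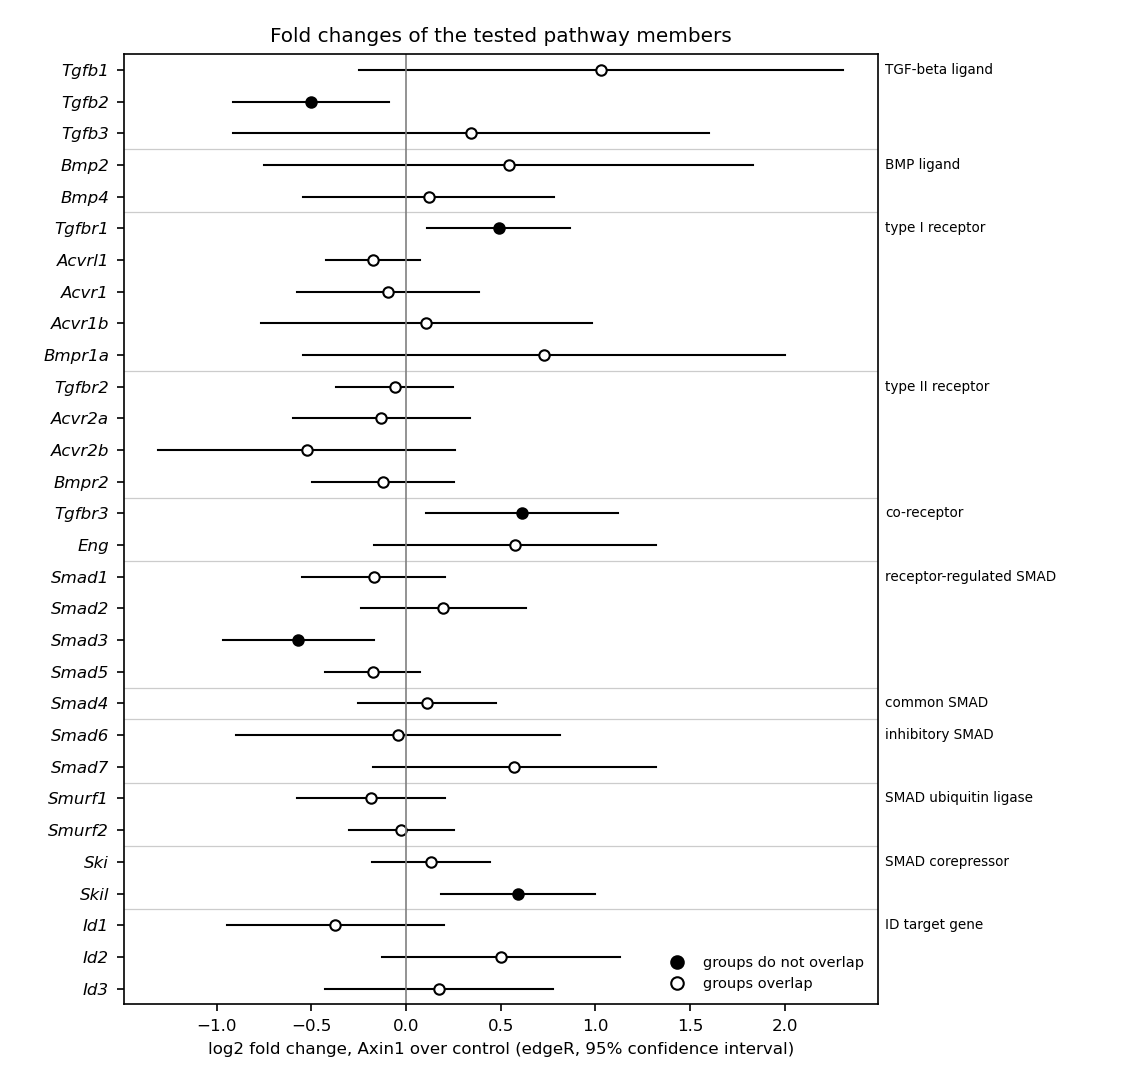
Log2 fold change of each of the 30 tested members, Axin1 over control libraries, as points with 95% confidence intervals from edgeR (n = 3 libraries per group), ordered by role. Filled points are the 5 members whose groups do not overlap, 3 higher and 2 lower in Axin1 libraries, and all 5 lie between -0.57 and 0.61.

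The promoters of Tgfb2, Smad3 and Tgfbr1 are shown because these are the members with non-overlapping groups for which RefSeq promoter sequence was at hand (27 of the 37 members matched). Each line runs 5′ to 3′ on the gene's strand over 300 bases, 250 before and 50 after the annotated start, in build GRCm38.p6. Capitals mark matches, on either strand, to a SMAD box (CAGAC), to a GC element found in BMP-responsive enhancers (GGCGCC) and to the core bound by the TCF/LEF partners of beta-catenin (CTTTGAA as well as CTTTGTT and CTTTGAT), and no printed match overlaps another.
Tgfb2, chr1:186705940-186706239, minus strand: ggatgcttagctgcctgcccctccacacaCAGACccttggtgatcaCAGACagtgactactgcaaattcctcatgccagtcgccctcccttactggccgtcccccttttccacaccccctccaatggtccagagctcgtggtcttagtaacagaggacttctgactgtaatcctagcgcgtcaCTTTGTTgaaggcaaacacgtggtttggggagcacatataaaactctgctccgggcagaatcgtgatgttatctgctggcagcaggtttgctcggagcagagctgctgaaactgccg
Smad3, chr9:63757945-63758244, minus strand: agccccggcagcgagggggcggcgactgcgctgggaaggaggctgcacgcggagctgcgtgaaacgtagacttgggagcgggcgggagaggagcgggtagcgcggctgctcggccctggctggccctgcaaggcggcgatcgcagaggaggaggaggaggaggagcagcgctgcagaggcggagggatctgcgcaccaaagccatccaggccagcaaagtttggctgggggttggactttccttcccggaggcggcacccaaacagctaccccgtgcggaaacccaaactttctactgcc
Tgfbr1, chr4:47352972-47353271, plus strand: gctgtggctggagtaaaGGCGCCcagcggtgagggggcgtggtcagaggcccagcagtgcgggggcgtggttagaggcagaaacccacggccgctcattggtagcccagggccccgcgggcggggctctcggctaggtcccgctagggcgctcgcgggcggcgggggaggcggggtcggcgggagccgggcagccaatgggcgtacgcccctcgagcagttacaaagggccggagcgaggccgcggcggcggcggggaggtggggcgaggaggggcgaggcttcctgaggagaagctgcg
The Tgfb2 window held 2 SMAD boxes and 1 TCF/LEF core. The Tgfbr1 window held 1 GC element and the Smad3 window none of the 3 motifs. The window of a further annotated Tgfbr1 start, not printed, held 1 SMAD box. Of all 32851 promoter windows in the table, 49.6% held a SMAD box, 11.9% the GC element and 13.9% a TCF/LEF core. Of the 32 windows of members, 40.6% held a SMAD box, 31.2% the GC element and 15.6% a TCF/LEF core. The GC element holds only G and C. The printed windows of Tgfb2, Smad3 and Tgfbr1 were 54.3%, 67.7% and 74.7% G and C, beside a median of 52.7% over all windows. The part of base content in these shares was not tested. These matches describe the letters in these windows, and binding was not measured.

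Ligand genes were expressed at low levels, and 2 of the 9 made up most of the ligand RNA. Levels of different genes are compared here per length, as the authors' deposited RPKM, reads scaled by transcript length and library size. Bmp4, a BMP ligand of mesoderm and vascular development, and Tgfb2, a TGF-beta ligand, averaged 7.21 ± 2.56 and 5.93 ± 1.09 RPKM in Axin1 libraries and 6.57 ± 1.22 and 8.31 ± 1.22 RPKM in control libraries (SD, n = 3 each). Tgfb1, Tgfb3 and Bmp2 each averaged between 0.623 and 1.60 RPKM in either group. The BMP ligand genes Bmp6 and Bmp7 had 15 and 27 reads in all 6 libraries together, and the activin subunit genes Inhba and Inhbb had 1 read each, in Axin1 library 2. None of these 4 genes was tested. A count of 3 reads in 1 library corresponds to between 0.207 and 0.276 CPM, and lower levels of a gene with no reads in a library cannot be detected. That limit covers counting error only.

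Tgfb2 stood at 22.4, 30.6 and 31.5 CPM in Axin1 libraries 1, 2 and 3 and at 36.0, 46.2 and 37.5 CPM in control libraries 1, 2 and 3. All Axin1 libraries lay below all control libraries. The log2 fold change was -0.50 (SE 0.18, 95% confidence interval -0.91 to -0.09, edgeR adjusted p 0.213). As a share of the summed RPKM of the 9 ligand genes, Tgfb2 made up 26.5%, 39.7% and 40.4% in Axin1 libraries and 45.7%, 57.8% and 42.5% in control libraries. Bmp4 stood at 19.0, 13.02 and 9.25 CPM in Axin1 libraries and at 14.3, 9.89 and 13.9 CPM in control libraries, with overlapping groups (log2 fold change 0.12, SE 0.29, edgeR adjusted p 0.876).

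The remaining TGF-beta ligand genes rested on few reads. Tgfb1, the ligand gene also expressed by macrophages and platelets, had 30, 54 and 47 reads in Axin1 libraries and 10, 13 and 34 reads in control libraries. Its log2 fold change was 1.03, the largest of the 30 members, and its 95% confidence interval ran -0.25 to 2.31 (edgeR adjusted p 0.394). Control library 3 lay within the range of the Axin1 libraries. Leaving out 1 library moved the log2 fold change between 0.72, without control library 1, and 1.83, without control library 3. The summed macrophage markers were highest in Axin1 libraries 2 and 3, where Tgfb1 was also highest. Among controls the order differed. Control library 3, with 34 Tgfb1 reads, had a macrophage sum of 1162 CPM, and control library 2, with 13 reads, had 1540 CPM. Megakaryocyte markers summed to 311, 944 and 1348 CPM in Axin1 libraries and to 637, 645 and 708 CPM in control libraries. Within each group that was the order of Tgfb1 in CPM (2.40, 3.72 and 4.06 in Axin1 libraries, 0.875, 0.997 and 3.13 in control libraries). Between groups it was not, as Axin1 library 1 had the lowest sum and more Tgfb1 than control libraries 1 and 2. The part of macrophage or megakaryocyte RNA in the level of Tgfb1 was not tested. Tgfb3 had 35, 32 and 38 reads in Axin1 libraries and 9, 27 and 40 reads in control libraries (edgeR adjusted p 0.803). Bmp2 had 28, 14 and 45 reads in Axin1 libraries and 24, 20 and 13 reads in control libraries (edgeR adjusted p 0.677).

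**Figure D2:**
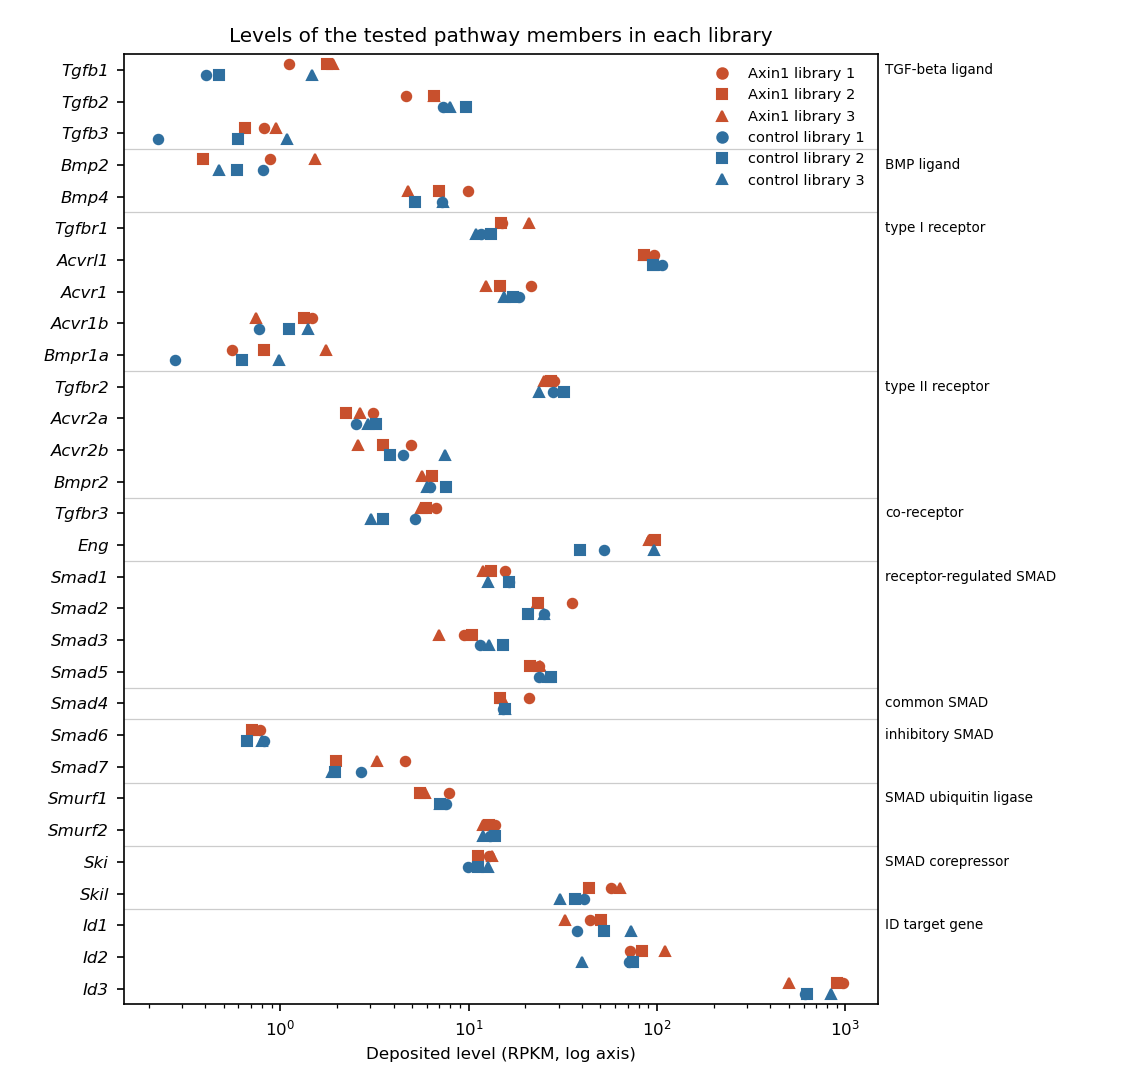
Deposited RPKM (log axis) of the 30 tested members in each library, ordered by role, with Axin1 libraries above control libraries within each gene and 1 symbol per library number. Id3 is the highest member at 499 to 974 RPKM, Acvrl1 the highest of the type I and type II receptors at 85.3 to 106 RPKM, and Bmp4 and Tgfb2 are the highest ligands.

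Among type I receptors, which carry the signal to SMADs, Acvrl1 was by far the most abundant. It stood at 96.5, 85.3 and 85.4 RPKM in Axin1 libraries and at 106, 95.5 and 96.0 RPKM in control libraries. Acvr1 (ALK2, a BMP type I receptor) averaged 16.1 ± 4.71 RPKM in Axin1 libraries and 17.1 ± 1.61 RPKM in control libraries. Tgfbr1 (ALK5, the TGF-beta type I receptor) averaged 16.9 ± 3.46 RPKM in Axin1 libraries and 11.9 ± 1.19 RPKM in control libraries (SD, n = 3 each). The levels of Acvr1 and Tgfbr1 were closer to each other than their spread in Axin1 libraries. The activin receptor gene Acvr1b and the BMP receptor gene Bmpr1a averaged between 0.630 and 1.18 RPKM in either group. The BMP receptor gene Bmpr1b had 62 reads in all, of which 30 were in control library 3, and was not tested.

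Tgfbr1 stood at 85.97, 82.9 and 120 CPM in Axin1 libraries and at 68.0, 75.6 and 61.9 CPM in control libraries. The groups did not overlap, and Axin1 library 3 was the highest. The log2 fold change was 0.49 (SE 0.17, 95% confidence interval 0.11 to 0.87, edgeR adjusted p 0.188). Axin1 library 3 also had the highest sum of macrophage markers. In Axin1 library 1, whose macrophage sum was under that of every control library, Tgfbr1 was above every control library. The part of macrophage RNA in the difference was not tested. Acvrl1 had a log2 fold change of -0.17 (SE 0.11, 95% confidence interval -0.42 to 0.07, edgeR adjusted p 0.462), and Acvr1, Acvr1b and Bmpr1a had edgeR adjusted p values between 0.550 and 0.923.

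The 4 type II receptor genes all had small negative log2 fold changes, between -0.53 and -0.06. Tgfbr2, the TGF-beta type II receptor, was the most abundant of them at 27.1 ± 1.68 RPKM in Axin1 libraries and 27.9 ± 4.25 RPKM in control libraries. Bmpr2, the BMP type II receptor mutated in heritable pulmonary arterial hypertension in humans, averaged 6.12 ± 0.41 RPKM in Axin1 libraries and 6.58 ± 0.84 RPKM in control libraries (SD, n = 3 each). The activin type II receptor genes Acvr2a and Acvr2b averaged 2.66 ± 0.45 and 3.67 ± 1.17 RPKM in Axin1 libraries and 2.89 ± 0.34 and 5.26 ± 1.97 RPKM in control libraries. Acvr2b had the smallest p of the 4. It stood at 8.47, 5.92 and 4.5 CPM in Axin1 libraries and at 7.88, 6.60 and 12.8 CPM in control libraries, with overlapping groups (log2 fold change -0.53, SE 0.34, edgeR adjusted p 0.483). The intervals of Tgfbr2 (-0.37 to 0.25), Acvr2a (-0.60 to 0.34) and Bmpr2 (-0.49 to 0.25) lay inside -1 to 1.

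The 2 co-receptor genes had like log2 fold changes, 0.58 and 0.61, from unlike patterns over libraries. Tgfbr3 (betaglycan), which presents TGF-beta2 to its receptors, stood at 41.3, 35.5 and 34.2 CPM in Axin1 libraries and at 32.7, 21.5 and 18.4 CPM in control libraries. The groups did not overlap, and the gap between Axin1 library 3 and control library 1 was small. The log2 fold change was 0.61 (SE 0.22, 95% confidence interval 0.11 to 1.12, edgeR adjusted p 0.214).

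Eng (endoglin) stood at 317, 324 and 311 CPM in Axin1 libraries and at 183, 132 and 324 CPM in control libraries. Control libraries 1 and 2 were lower than every Axin1 library, while control library 3 was at the level of the Axin1 libraries. With all libraries the log2 fold change was 0.58 (SE 0.31, 95% confidence interval -0.17 to 1.32, edgeR adjusted p 0.405). Without control library 3, the highest control, it was 1.00 (edgeR adjusted p 0.00996). That fit called 695 of 12932 tested genes, where the main fit called 107 of 12661. Control library 3 was the highest control for 4 of the 12 endothelial markers (Cdh5, Tie1, Erg and Cldn5) and the lowest for 4 (Pecam1, Tek, Flt1 and Emcn). The first 4 are given with values, chosen after they were seen. The endothelial cadherin gene Cdh5 stood at 981, 945 and 924 CPM in Axin1 libraries and at 432, 502 and 846 CPM in control libraries. The tight junction gene Cldn5 stood at 186, 275 and 242 CPM in Axin1 libraries and at 44.0, 48.2 and 196 CPM in control libraries. Tie1 and Erg did not share that pattern. Tie1 stood at 855, 982 and 1018 CPM in Axin1 libraries and at 886, 914 and 1010 CPM in control libraries (log2 fold change 0.02). Erg stood at 67.4, 58.3 and 55.3 CPM in Axin1 libraries and at 63.9, 62.1 and 101 CPM in control libraries (log2 fold change -0.33). The extracellular BMP regulator gene Bmper had 4, 8 and 13 reads in Axin1 libraries and 2, 2 and 19 reads in control libraries, and was not tested.

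**Figure D3:**
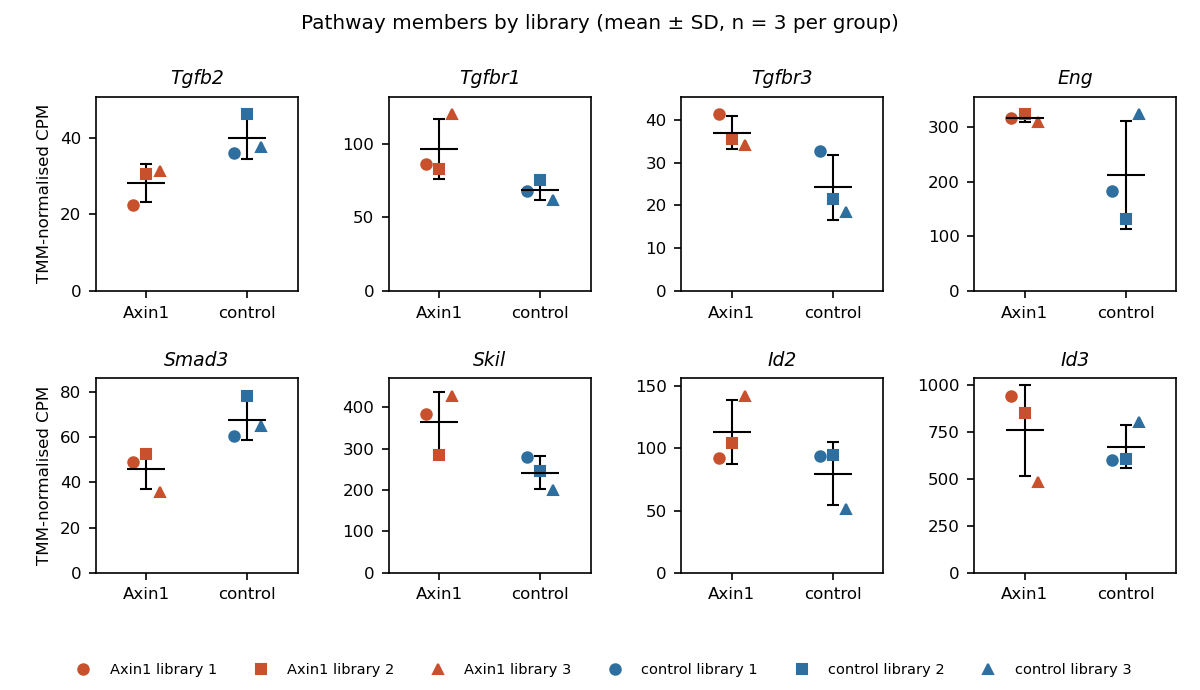
TMM-normalised CPM of 8 members in each library (symbols), with the mean and SD of each group (n = 3). Tgfb2 and Smad3 lie lower and Tgfbr1, Tgfbr3 and Skil higher in all Axin1 libraries than in all control libraries, while Eng, Id2 and Id3 overlap, Eng because control library 3 stands at 324 CPM.

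Among SMAD genes, those of both branches were expressed at similar levels. Smad5 and Smad2 averaged 22.9 ± 1.45 and 27.3 ± 7.01 RPKM in Axin1 libraries and 25.9 ± 1.99 and 23.6 ± 2.56 RPKM in control libraries. Smad1 averaged 13.6 ± 1.90 RPKM in Axin1 libraries and 15.1 ± 2.08 RPKM in control libraries, and Smad3 8.96 ± 1.79 RPKM in Axin1 libraries and 13.1 ± 1.92 RPKM in control libraries (SD, n = 3 each). Smad9, a further BMP SMAD, had 8 reads in all 6 libraries and was not tested. Smad4, the common partner, stood at 70.5, 48.7 and 50.9 CPM in Axin1 libraries and at 52.9, 52.4 and 52.3 CPM in control libraries. Its 3 controls differed by under 1 CPM, and Axin1 library 1 stood apart from the other 5 libraries (log2 fold change 0.11, SE 0.16, edgeR adjusted p 0.775).

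Smad3 was the SMAD gene with the smallest p. It stood at 48.9, 52.5 and 36.0 CPM in Axin1 libraries and at 60.5, 78.3 and 64.9 CPM in control libraries. All Axin1 libraries lay below all control libraries, with Axin1 library 3 the lowest. The log2 fold change was -0.57 (SE 0.17, 95% confidence interval -0.96 to -0.17), with an adjusted p of 0.156 in edgeR and 0.0624 in DESeq2. Smad1, Smad2 and Smad5 had log2 fold changes of -0.17, 0.20 and -0.18 and edgeR adjusted p values between 0.459 and 0.649. Smad5 came close to separating the groups, with 154, 135 and 158.5 CPM in Axin1 libraries and 157.5, 178 and 170.4 CPM in control libraries.

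The inhibitory SMAD genes, which are feedback targets of the pathway, differed in level. Smad7, which restrains TGF-beta receptors, stood at 20.5, 8.68 and 14.8 CPM in Axin1 libraries and at 12.4, 8.74 and 8.37 CPM in control libraries. Axin1 library 2 was within the range of the controls and the other Axin1 libraries were above it (log2 fold change 0.57, SE 0.33, edgeR adjusted p 0.414). Smad6, which restrains BMP receptors, had between 26 and 30 reads in every library (log2 fold change -0.04, 95% confidence interval -0.90 to 0.81, edgeR adjusted p 0.970). The ubiquitin ligase genes Smurf1 and Smurf2, whose products mark receptors and SMADs for degradation, averaged 6.43 ± 1.30 and 12.9 ± 0.97 RPKM in Axin1 libraries and 7.23 ± 0.29 and 12.9 ± 0.92 RPKM in control libraries (SD, n = 3 each). Smurf1 stood at 42.7, 29.0 and 31.8 CPM in Axin1 libraries and at 41.8, 38.1 and 37.5 CPM in control libraries, with overlapping groups (log2 fold change -0.18, SE 0.17, edgeR adjusted p 0.637). Smurf2 had a log2 fold change of -0.02 (95% confidence interval -0.30 to 0.25, edgeR adjusted p 0.948).

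Skil, the gene of the SMAD corepressor SnoN and itself a TGF-beta target, had the smallest p of all members. It stood at 383, 284.5 and 428 CPM in Axin1 libraries and at 281, 246 and 201 CPM in control libraries. The groups did not overlap, although Axin1 library 2 and control library 1 were within 4 CPM of each other. The log2 fold change was 0.59 (SE 0.18, 95% confidence interval 0.18 to 1.00), a 1.51-fold difference, with an adjusted p of 0.155 in edgeR and 0.0429 in DESeq2. DESeq2 called no other member. Skil was also among the more abundant members, at 54.9 ± 10.3 RPKM in Axin1 libraries and 36.1 ± 5.30 RPKM in control libraries (SD, n = 3 each). Its paralogue Ski averaged 12.4 ± 1.12 RPKM in Axin1 libraries and 11.2 ± 1.40 RPKM in control libraries, with a log2 fold change of 0.13 (SE 0.14, edgeR adjusted p 0.672).

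The target genes Id1, Id2 and Id3 encode helix-loop-helix proteins that block basic helix-loop-helix transcription factors, and are induced by BMP signalling. Id3 was the most abundant of the 37 members, at 792 ± 256 RPKM in Axin1 libraries and 694 ± 130 RPKM in control libraries. Id2 averaged 88.7 ± 19.8 RPKM in Axin1 libraries and 61.8 ± 18.8 RPKM in control libraries, and Id1 42.3 ± 9.03 RPKM in Axin1 libraries and 54.3 ± 17.9 RPKM in control libraries (SD, n = 3 each). Id1 and Id2 lay within each other's spread in control libraries. The 3 genes did not move together. In Axin1 library 3 Id2 was at its highest and Id1 and Id3 at their lowest of all 6 libraries, and in control library 3 Id2 was at its lowest and Id1 at its highest.

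Id3 stood at 940, 850 and 482 CPM in Axin1 libraries and at 602, 605 and 804 CPM in control libraries. Axin1 libraries 1 and 2 were above every control and Axin1 library 3 below every control. The log2 fold change was 0.18 (SE 0.25, 95% confidence interval -0.43 to 0.78, edgeR adjusted p 0.776). Id2 stood at 92.5, 104.5 and 142 CPM in Axin1 libraries and at 93.5, 94.8 and 50.8 CPM in control libraries, with overlapping groups (log2 fold change 0.50, SE 0.27, edgeR adjusted p 0.394). Id1 stood at 40.7, 45.2 and 30.0 CPM in Axin1 libraries and at 35.6, 47.9 and 66.7 CPM in control libraries, also with overlapping groups (log2 fold change -0.37, SE 0.25, edgeR adjusted p 0.495). As a share of the summed RPKM of the 3 genes, Id3 made up 89.3%, 87.1% and 77.7% in Axin1 libraries and 84.9%, 83.3% and 88.2% in control libraries. Id1 made up 4.04%, 4.85% and 5.05% in Axin1 libraries and 5.24%, 6.89% and 7.65% in control libraries, a lower share in every Axin1 library that was singled out after the values were seen.

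Several ratios between related members were computed per library on the RPKM scale. They were chosen after the levels had been seen and are given without a test. The groups of Tgfbr1 and Smad3 already did not overlap, so ratios and shares that hold these genes in part restate the same values. The ratio of Acvrl1 to Tgfbr1 was 6.44, 5.76 and 4.09 in Axin1 libraries and 9.18, 7.22 and 8.80 in control libraries, lower in every Axin1 library. The ratio of Smad3 to Smad2 was 0.268, 0.446 and 0.301 in Axin1 libraries and 0.459, 0.739 and 0.508 in control libraries, also lower in every Axin1 library. For Smad3 over Smad2, Axin1 library 2 and control library 1 lay close together. The summed level of the BMP SMADs (Smad1, Smad5 and Smad9) over that of Smad2 and Smad3 was 0.877, 1.02 and 1.19 in Axin1 libraries and 1.10, 1.22 and 1.04 in control libraries, and overlapped. The ratios of Eng to Tgfbr3, Skil to Ski and Smad7 to Smad6 overlapped as well. Among the 6 type I receptor genes, Acvrl1 made up 70.4% to 72.9% of the summed RPKM in Axin1 libraries and 74.8% to 77.2% in control libraries, and Tgfbr1 made up 11.1% to 17.2% in Axin1 libraries and 8.41% to 10.4% in control libraries.

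**Figure D4:**
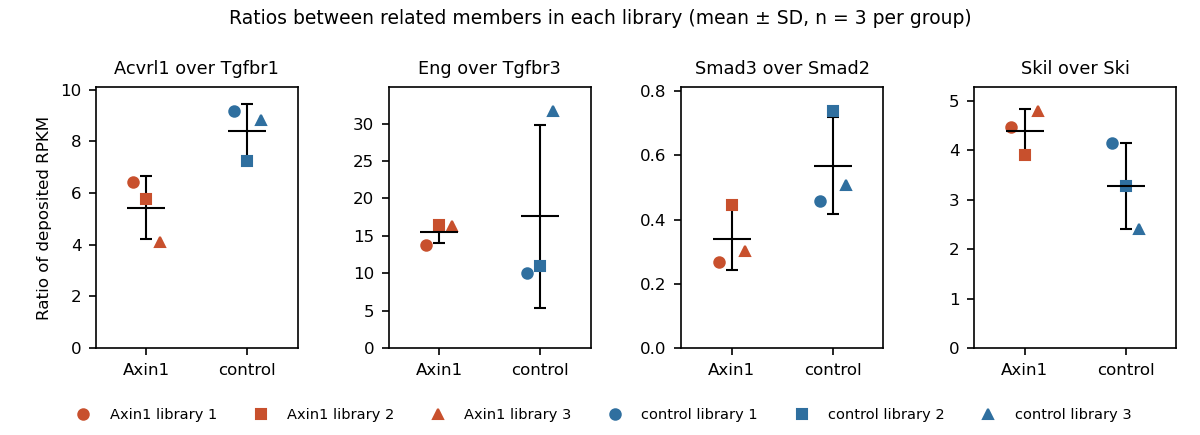
Ratios of deposited RPKM between related members in each library (symbols), with the mean and SD of each group (n = 3), Axin1 left of control. Acvrl1 over Tgfbr1 and Smad3 over Smad2 lie lower in all Axin1 libraries, while Eng over Tgfbr3 and Skil over Ski overlap, and control library 3 stands at 31.7 for Eng over Tgfbr3. The groups of Tgfbr1 and of Smad3 do not overlap by themselves either.

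Of 100 other genes listed for these pathways, 99 were found under 1 entry each and 60 had enough reads for the test. By edgeR 0 of the 60 were called, with 12 (20%) at an unadjusted p under 0.05 beside 17.2% of all tested genes, 37 positive and 23 negative log2 fold changes, and a median of 0.15. DESeq2 called 5 of them, with Hey1, Fkbp1a and Stub1 higher and Neo1 and Lrrc32 lower, where it called 5.69% of all tested genes. The groups of 15 (25%) did not overlap, beside 23.8% of all tested genes. Among 24 further ligand genes 5 were tested, and the genes of the ACVRL1 ligands BMP9 and BMP10 (Gdf2 and Bmp10) had no read in any library. Among 20 further reported target genes 17 were tested and 13 had positive log2 fold changes. The median of the 17 was 0.41, beside 0.02 for all tested genes. The 6 other pathway genes with the smallest p were Neo1, Hey1, Lrrc32, Fkbp1a, Stard8 and Stub1, and the groups of each did not overlap. They were picked by p in the same libraries, so that separation is no further support.

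Neo1, the gene of the neogenin receptor that binds BMP co-receptors of the repulsive guidance molecule family, stood at 30.2, 25.1 and 23.8 CPM in Axin1 libraries and at 42.9, 56.1 and 42.0 CPM in control libraries (log2 fold change -0.83, SE 0.17, adjusted p 0.0639 in edgeR and 0.00208 in DESeq2). Lrrc32, which encodes the GARP protein that anchors latent TGF-beta at the cell surface, stood at 52.8, 47.9 and 60.7 CPM in Axin1 libraries and at 90.4, 72.7 and 72.1 CPM in control libraries (log2 fold change -0.54, SE 0.15, adjusted p 0.119 in edgeR and 0.0362 in DESeq2). These 2 genes were lower in every Axin1 library. Hey1, a transcriptional repressor induced by Notch and by BMP signalling in endothelium, stood at 67.1, 53.9 and 52.7 CPM in Axin1 libraries and at 24.6, 30.7 and 39.2 CPM in control libraries (log2 fold change 0.88, SE 0.19, adjusted p 0.0793 in edgeR and 0.00265 in DESeq2). Stard8 stood at 168, 155 and 192 CPM in Axin1 libraries and at 116, 115 and 144 CPM in control libraries (log2 fold change 0.46, SE 0.13, edgeR adjusted p 0.142).

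Fkbp1a and Stub1 were higher in every Axin1 library. Fkbp1a, which encodes the FKBP12 protein that binds and restrains type I receptors, stood at 1205, 1063 and 1115 CPM in Axin1 libraries and at 496, 373 and 809 CPM in control libraries (log2 fold change 1.01, SE 0.27, edgeR adjusted p 0.139). Stub1, the gene of the ubiquitin ligase CHIP, stood at 18.3, 25.5 and 17.8 CPM in Axin1 libraries and at 5.25, 3.14 and 12.5 CPM in control libraries (log2 fold change 1.57, SE 0.48, edgeR adjusted p 0.169). In both, control library 3 was the highest control, as for Eng. Tmem100, an ACVRL1 target gene in mouse endothelium that was singled out after its values were seen, stood at 24.9, 16.8 and 17.8 CPM in Axin1 libraries and at 32.9, 35.1 and 22.8 CPM in control libraries, with overlapping groups (log2 fold change -0.61, SE 0.23, edgeR adjusted p 0.223). Most of its list went the other way. Of the 17 tested target genes, 13 had positive and 4 negative log2 fold changes, where 6648 of all 12661 tested genes had positive ones. The groups of 4 (Hey1, Stard8, Atoh8 and Snai2) lay higher in Axin1 libraries without overlap, and those of 1 (Tgfbi) lower. The share without overlap was 29.4%, beside 23.8% of all tested genes.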

How the data were processed

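Each of the 6 libraries had 1 table with a whole-number read count and an RPKM value per RefSeq gene entry, as the authors deposited them. Alignment used Bowtie on mm9, per the submitters' processing notes, which give no version. How reads were counted, and with which strand setting, is not given in the sources used here. Exons of Tgfb2, Tgfb3, Bmp4, Bmp6, Acvrl1, Bmpr1a, Acvr2a, Eng and Stub1 share bases with an opposite-strand gene in GENCODE, and those of Tgfbr3, Smad5 and Smurf2 a gene on the same strand, so their counts are uncertain, as are those of Fkbp1a, which has processed pseudogenes there. The deposited RPKM were used for levels between genes and for limma on log2(RPKM + 1).

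Counts were tested with edgeR 4.0.16 (R 4.3.3): filterByExpr (minimum count 10, minimum total 15), TMM normalisation, robust quasi-likelihood fit, no covariates, and Benjamini-Hochberg adjustment over 12661 genes. Standard errors are the size of the log2 fold change divided by the square root of F. The alternatives used DESeq2 1.42.0 and limma 3.58.1. CPM are TMM-normalised. On simulated data with the gene-wise spread of this comparison (12459 genes), 36.7% of 2-fold and 12% of 1.5-fold changes were called. In the simulation few genes were changed and each gene varied independently, so recovery in the real libraries may differ. Values are given in full for members whose groups do not overlap, that passed in an alternative or had the smallest p of their role. They are given in part for other members. Other pathway genes with values are the 6 with the smallest p, and Tmem100, singled out after its values were seen. Members and lists were chosen with earlier results of these data known.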

Additional observations from a re-analysis of the deposited data

How the results depend on the processing

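Of 17 alternatives to the main settings, 4 called a member, and no member was called in more than 3. Without the low-count filter the test called 197 of all genes, without the robust fit 51 and by DESeq2 720, against 107. Leaving out 1 library gave 0 to 695 calls over all genes: 33, 0 and 18 without Axin1 library 1, 2 or 3, and 10, 0 and 695 without control library 1, 2 or 3. Members called higher numbered 1 by DESeq2 (Skil) and 0 to 1 in the fits without 1 library (Eng without control library 3), and members called lower 0 in both. Of the other pathway genes 2 were called without the filter, 5 by DESeq2 and 0 to 7 without 1 library. The edgeR fits without Axin1 library 2 or control library 2 called 0 genes, with 1733 and 1539 at an unadjusted p under 0.05. For these counts the cause was not tested.

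Libraries 1 and 2 of each group share a title number (1813 and 1814), and the labels do not say what it marks. Deviations from the group means correlated at 0.23 and 0.15 for these pairs, and among the other combinations the highest value was 0.17 (Axin1 library 3 with control library 2). With only these 2 pairs the title number was not taken to pair the libraries. The description numbers add 1 more pair, at -0.02, and were not taken to pair them either. With the title number as a replicate block in these 4 libraries, 1500 of 12628 tested genes (11.9%) were called. Among them were 12 other pathway genes, 2 members higher (Eng and Id3, edgeR adjusted p 1.1e-04 and 9.3e-04) and 1 lower (Tgfb2, edgeR adjusted p 0.0246). An alternative added after seeing the data used the same 4 libraries without the block. It called 512 of 12628 tested genes, among them 5 other pathway genes, 2 members higher (Eng and Id3) and 0 lower. Both fits leave out Axin1 library 3, where Id3 was low, and control library 3, where Eng was high. With the description number as a block over 6 libraries, 105 genes and 0 members were called.

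Of the member fold changes recomputed, 479 kept direction and call, 7 became calls and 19 changed sign. In the 4 shared-number libraries Bmp2 was at -0.27 with and -0.19 without the block, and Id1 at 0.049 and 0.038. The other sign changes arose on leaving out 1 library, over ranges of -0.059 to 0.92 for Tgfb3, -0.016 to 0.92 for Bmp2, -0.19 to 0.34 for Bmp4, -0.36 to 0.063 for Acvr1, -0.082 to 0.34 for Acvr1b, -0.19 to 0.044 for Tgfbr2, -0.043 to 0.31 for Smad2, -0.079 to 0.21 for Smad4, -0.14 to 0.026 for Smad6, -0.10 to 0.023 for Smurf2 and -0.011 to 0.42 for Id3. None of these was a call. The members with non-overlapping groups kept their sign in every alternative. They were picked because their groups separate, so leaving out libraries could hardly reverse them, and the kept sign is no support. Scaling moved the median of all genes by under 0.1 on the log2 scale (0.02 by TMM, 0.01 by RLE, -0.02 by upper quartile). Depth limits Tgfb1, Tgfb3, Bmp2 and Smad6, which had at most 54 reads in any library.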
